A study of Mus musculus with 18 samples.

Results

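The genes described here are 10 genes of iron handling and ferroptosis, chosen by their symbols from the 24419 symbols of a gene expression table of the mouse heart after acute myocardial infarction (AMI). They are Tfrc and Slc11a1 (iron uptake), Fth1 and Ftl1 (iron storage), Slc40a1 (iron export), Ireb2, Aco1 and Hamp (iron regulation), and Gpx4 and Acsl4 (ferroptosis). All 10 were found in the table, 1 row each, and all 10 entered the tests. Hamp passed the filter on low values only through mice at 6 h and 24 h, where it was high, so its values are given as a description and it is left out of the counts of called genes below, which cover the other 9.

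RNA of the heart was sequenced from 18 male C57BL/6 mice aged 8 weeks, 3 in each of 6 groups. AMI was made by tying the proximal left anterior descending coronary artery under sodium pentobarbital. Infarcted tissue of the left ventricle was taken 10 min, 1 h, 6 h, 24 h or 72 h later. The other 3 mice are called control in the sample labels and sham in the study, and are called sham here. Polyadenylated RNA of the tissue piece was sequenced, so each value is an average over all cells of the piece. Fewer cells of a type cannot be told apart from less RNA per cell. Expression is given as FPKM, the fragments mapped to a gene scaled to its length and to the mapped fragments of the library. The file holds no counts and its depth is unknown. The error of every value is therefore the SD over the 3 mice of its group. Every mouse was sampled at 1 time only.

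Iron enters most cells bound to transferrin, through the receptor Tfrc, is stored in ferritin shells built of the heavy chain Fth1 and the light chain Ftl1, and leaves through ferroportin, Slc40a1. The iron regulatory proteins Aco1 and Ireb2 bind hairpins in messenger RNAs, the iron-responsive elements, when iron is low: at the 5′ end of a message they block its translation, and at the 3′ end they protect it from decay. Ferroptosis is a form of cell death driven by iron-dependent peroxidation of membrane lipids, which Gpx4 reverses and for which Acsl4 prepares the lipids.

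The iron-responsive elements of the storage, export and uptake genes are shown because they are the sequence through which these members are coupled to iron. Transcripts of GENCODE release M21 (mm10) were searched for the letters CNNNNNCAGTGN, a bulged C, 5 bases and a loop of 6 bases, with the 5 bases before the loop pairing with the 5 after it, G-T pairs allowed. The bulged C and the loop are in capitals, within 29 bases of the sense strand.

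Fth1 5′ element: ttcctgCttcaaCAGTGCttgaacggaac
Ftl1 5′ element: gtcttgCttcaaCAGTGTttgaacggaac
Slc40a1 5′ element: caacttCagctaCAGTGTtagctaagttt
Tfrc 3′ element 1: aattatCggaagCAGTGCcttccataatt
Tfrc 3′ element 2: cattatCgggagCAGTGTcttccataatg
Tfrc 3′ element 3: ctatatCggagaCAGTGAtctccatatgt
Tfrc 3′ element 4: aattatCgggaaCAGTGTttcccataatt

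The element of Fth1 lies in its 5′ untranslated region at chr19:9982732-9982760 on the plus strand, that of Ftl1 at chr7:45459779-45459807 on the minus strand and that of Slc40a1 at chr1:45925465-45925493 on the minus strand. The 4 elements of Tfrc lie in its 3′ untranslated region, at chr16:32631219-32631247, chr16:32631598-32631626, chr16:32631663-32631691 and chr16:32631710-32631738 on the plus strand. No other member had a match in an untranslated region. Of 20883 genes with an annotated 5′ region 31 held the hairpin (0.148%), and of 21005 genes with a 3′ region 129 did (0.614%). A match describes the letters, and translation was not measured in these data.

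The gene order along the genome scatters the members. In GENCODE M21 on mm10, Slc40a1 spans chr1:45908068-45926523 and Slc11a1 chr1:74375195-74386062. Aco1 spans chr4:40143081-40198338, Hamp chr7:30942368-30944032, Ftl1 chr7:45457944-45459884 and Ireb2 chr9:54863789-54912530. Gpx4 spans chr10:80047166-80056439, Tfrc chr16:32608920-32632794, Fth1 chr19:9980598-9985098 and Acsl4 chrX:142317993-142390535. Fth1 and Ftl1 have many near-identical pseudogene copies and Hamp has the close paralog Hamp2, so reads of these members may have been split by the counting and their levels are uncertain to that extent.

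No member was called at 10 min or 1 h after AMI. By limma, with p adjusted over all genes tested (Benjamini-Hochberg), 0 of 9 members passed the test at 10 min, where 0.346% of all genes did, and 0 of 9 at 1 h, where 0.722% did. At an unadjusted p under 0.05, limma gave 1 of 9 members at 10 min, Tfrc, where 14.7% of all genes had one, and 1 of 9 at 1 h, Gpx4, where 12.6% did. At 6 h 2 of 9 members were called, Ftl1 and Acsl4, both higher, against 28.3% of all genes called. At 24 h 3 of 9 were called, Slc11a1, Ftl1 and Acsl4, all higher, against 37.6% of all genes. At 72 h 8 of 9 members were higher and 1, Gpx4, was lower, where 77.3% of all genes were called, 53.1% higher and 24.2% lower. Only the rise of Ftl1 was called at 6 h, 24 h and 72 h under each of the 14 alternatives run at each of these times.

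The 10 members include Hamp, so their medians are a description. The median log2 fold change of the 10 members against sham was 0.01 at 10 min and -0.01 at 1 h. The later medians were 0.19 (6 h), 0.28 (24 h) and 0.47 (72 h). Over all genes tested it was 0.02, -0.02, -0.08, 0.13 and 0.29. The shift of all genes at 72 h depends on the scaling, since it was 0.03 after median-of-ratios scaling and -0.12 after quantile normalization. These scalings also moved the split of all calls at 72 h from 7081 higher and 3226 lower to 5208 and 4792, or to 4278 and 5794. Relative to the median of all genes, the 72 h log2 fold changes of the members were 3.37 for Ftl1, 2.89 for Slc11a1, 1.06 for Slc40a1, 1.02 for Acsl4, 0.27 for Ireb2, 0.08 for Tfrc, 0.07 for Fth1, 0.00 for Aco1, -0.25 for Hamp and -0.72 for Gpx4.

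**Figure D1:**
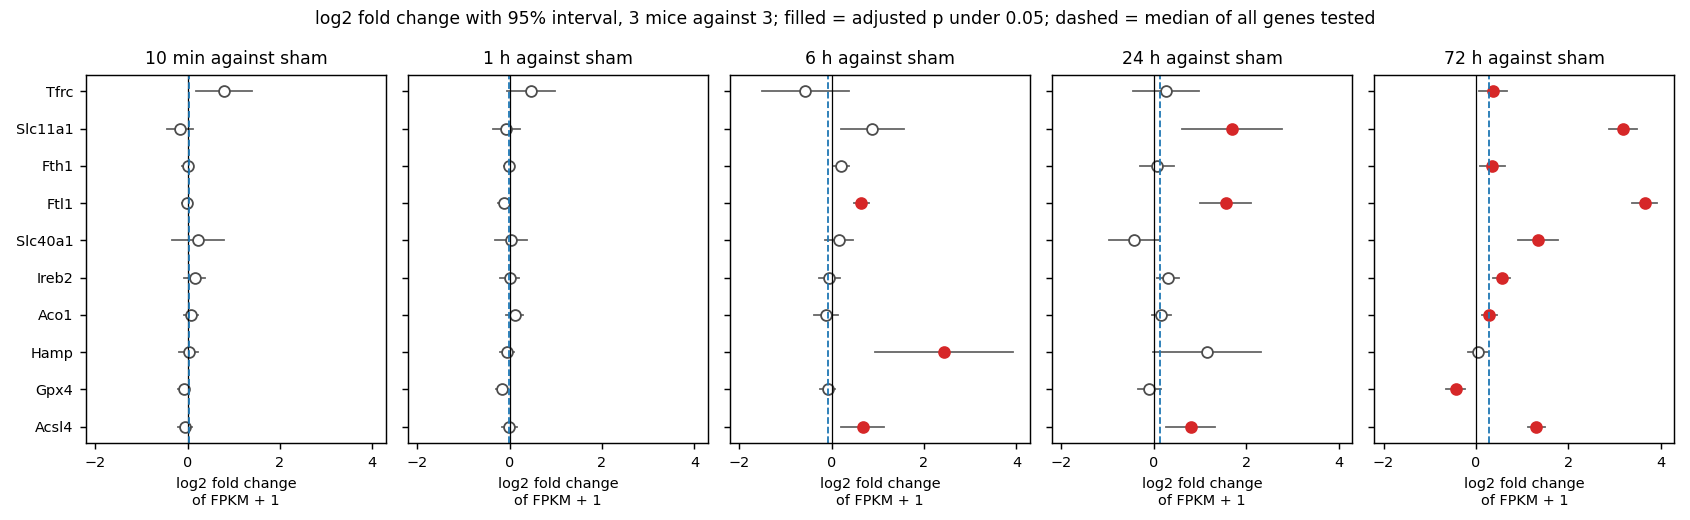
log2 fold change of FPKM + 1 (horizontal axis) of the 10 genes (vertical axis) at each time against sham, with 95% intervals from limma and 3 mice a group. Filled points passed an adjusted p under 0.05 and the dashed line is the median of all genes tested. Ftl1 was filled at 6 h, 24 h and 72 h (0.64, 1.56 and 3.66), and Gpx4 was the filled point below 0 at 72 h (-0.43). Hamp, filled at 6 h, entered the tests only through its 6 h and 24 h mice.

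The cell make-up of the tissue moved over the same times, in markers that were listed for each cell type. The summed FPKM of 8 cardiomyocyte markers was between 63524 and 67578 in sham mice and between 21559 and 28086 at 72 h, where all 8 were lower. For 8 macrophage markers the sum was between 189 and 221 in sham, between 330 and 488 at 24 h and between 1849 and 2354 at 72 h, where all 8 were higher. The summed FPKM of 6 neutrophil markers was between 2.32 and 5 in sham, and was 1002, 117 and 377 at 6 h and 210, 42.9 and 968 at 24 h. For 4 monocyte markers it was between 2.05 and 2.84 in sham, between 12.1 and 37.6 at 6 h and between 91.7 and 114 at 72 h. For 6 fibroblast markers it was between 226 and 250 in sham and between 2953 and 3666 at 72 h. That of 6 endothelial markers was between 569 and 673 in sham and between 545 and 682 at 72 h, with 1 higher and 3 lower. For 7 erythroid markers, of the cells that hold most of the body's heme, the sum was between 2234 and 4133 in sham, 3097, 6366 and 3029 at 6 h and between 1483 and 2199 at 72 h, where 2 of the 5 tested were lower, Hba-a2 by a log2 fold change of -0.92 and Alas2 by -0.56. No defining marker of cardiomyocytes was absent from any group. The part of these changes in the results below was not tested.

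The transferrin receptor Tfrc, the entry route of transferrin-bound iron, varied more between mice of a group than most members. It stood at 38.8, 40.3 and 54.5 FPKM in the sham mice and at 120, 66.5 and 56.9 FPKM at 10 min. All 3 mice at 10 min thus lay above all 3 sham mice, by a log2 fold change of 0.79 (95% interval 0.18 to 1.40), but the change did not pass the test (limma, adjusted p = 0.242). At 1 h the values were 86.9, 53.0 and 48.4 FPKM, and overlapped those of sham. At 6 h mouse 1 and mouse 2 had 21.1 and 19.3 FPKM, below every other mouse of the series, while mouse 3 had 60.8 FPKM. The log2 fold change at 6 h was -0.57 (95% interval -1.51 to 0.37, limma adjusted p = 0.308) with all 3 mice, and -1.09 (adjusted p = 0.00648) without mouse 3. At 24 h the values were 52.6, 82.9 and 34.0 FPKM and at 72 h 59.5, 62.8 and 49.9 FPKM. The 72 h log2 fold change of 0.37 ± 0.14 (SE) passed the test (limma, adjusted p = 0.035), although 1 mouse at 72 h lay below the highest sham mouse. It was 0.06 (adjusted p = 0.71) after median-of-ratios scaling and 0.17 (adjusted p = 0.28) after quantile normalization, and the call was lost without mouse 1 or mouse 2 of either group (adjusted p between 0.0938 and 0.119). The call was also lost without a filter (adjusted p = 0.0722), with the mouse number as a block (adjusted p = 0.0542) and with all 18 mice in one fit (adjusted p = 0.409). By mean FPKM the order of the groups was 10 min, 1 h, 72 h, 24 h, sham and 6 h, with every neighbouring pair overlapping.

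Slc11a1, a metal transporter in the phagosome membrane of macrophages and neutrophils, was the lowest of the members in sham mice apart from Hamp. The sham mice had 0.994, 1.29 and 1.63 FPKM, and the means at 10 min and 1 h were 1.04 ± 0.187 and 1.19 ± 0.235 FPKM (SD, n = 3). At 6 h it was 5.95, 2 and 2.59 FPKM, above every sham mouse, but the log2 fold change of 0.88 did not pass the test (95% interval 0.19 to 1.57, limma adjusted p = 0.0624). At 24 h the mice had 4.55, 3.46 and 15.4 FPKM, a log2 fold change of 1.69 ± 0.45 (SE, limma adjusted p = 0.0272), a call that was lost without a filter (adjusted p = 0.0531) or any 1 of the sham mice (adjusted p between 0.0674 and 0.0921). At 72 h they had 17.7, 18.9 and 23.2 FPKM, 15.3 times the sham mean, with a log2 fold change of 3.18 ± 0.13 (SE, limma adjusted p = 1.35e-07). Between 24 h and 72 h the log2 fold change was 1.49 ± 0.44 (SE, limma adjusted p = 0.03), which was lost without a filter (adjusted p = 0.0614) and without any 1 of the mice except 24 h mouse 3 (adjusted p between 0.064 and 0.103).

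Within 6 h and within 24 h, the mouse highest in Slc11a1 was the one with the most neutrophil, monocyte and macrophage marker RNA. The macrophage sums of mice 1, 2 and 3 were 306, 195 and 248 FPKM at 6 h and 330, 386 and 488 FPKM at 24 h. Of these sums, Cd14 was 110 FPKM in 6 h mouse 1 and 151 FPKM in 24 h mouse 3. At 72 h, mouse 3 was highest in Slc11a1, in the neutrophil sum and in the macrophage sum (2213, 1849 and 2354 FPKM), but lowest in the monocyte sum. The neutrophil sums of 72 h mice 1, 2 and 3 were 51.5, 61.3 and 62 FPKM, and their monocyte sums 94.2, 114 and 91.7 FPKM. Mouse 1 at 6 h, the highest of its group in Slc11a1, had the highest neutrophil sum (1002 FPKM) and monocyte sum (37.6 FPKM) of that group. Mouse 3 at 24 h, with 15.4 FPKM of Slc11a1, had a neutrophil sum of 968 FPKM and a monocyte sum of 184 FPKM, against 210 and 42.9 FPKM and 66.8 and 39 FPKM in mouse 1 and mouse 2. Relative to Cd68, a lysosomal marker of macrophages that itself had a log2 fold change of 4.95 at 72 h, the ratio of Slc11a1 FPKM was 0.244 ± 0.0767 in sham (SD, n = 3). It was 0.366 ± 0.125 at 6 h and 0.268 ± 0.179 at 24 h, and 72 h mice had 0.0998 ± 0.00942. This ratio depends on the marker, since Cd68 rose most of the 8 macrophage markers by 72 h. Slc11a1 was then 15.3 times its sham mean. Adgre1 (mean FPKM 1.28 to 24.6) and Fcgr1 (2.29 to 67.1) also rose by more. C1qb (52.4 to 678), C1qa (84.5 to 769), Cd14 (4.9 to 39.5), Mrc1 (9.77 to 66.6) and Csf1r (45.3 to 295) rose by less.

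**Figure D2:**
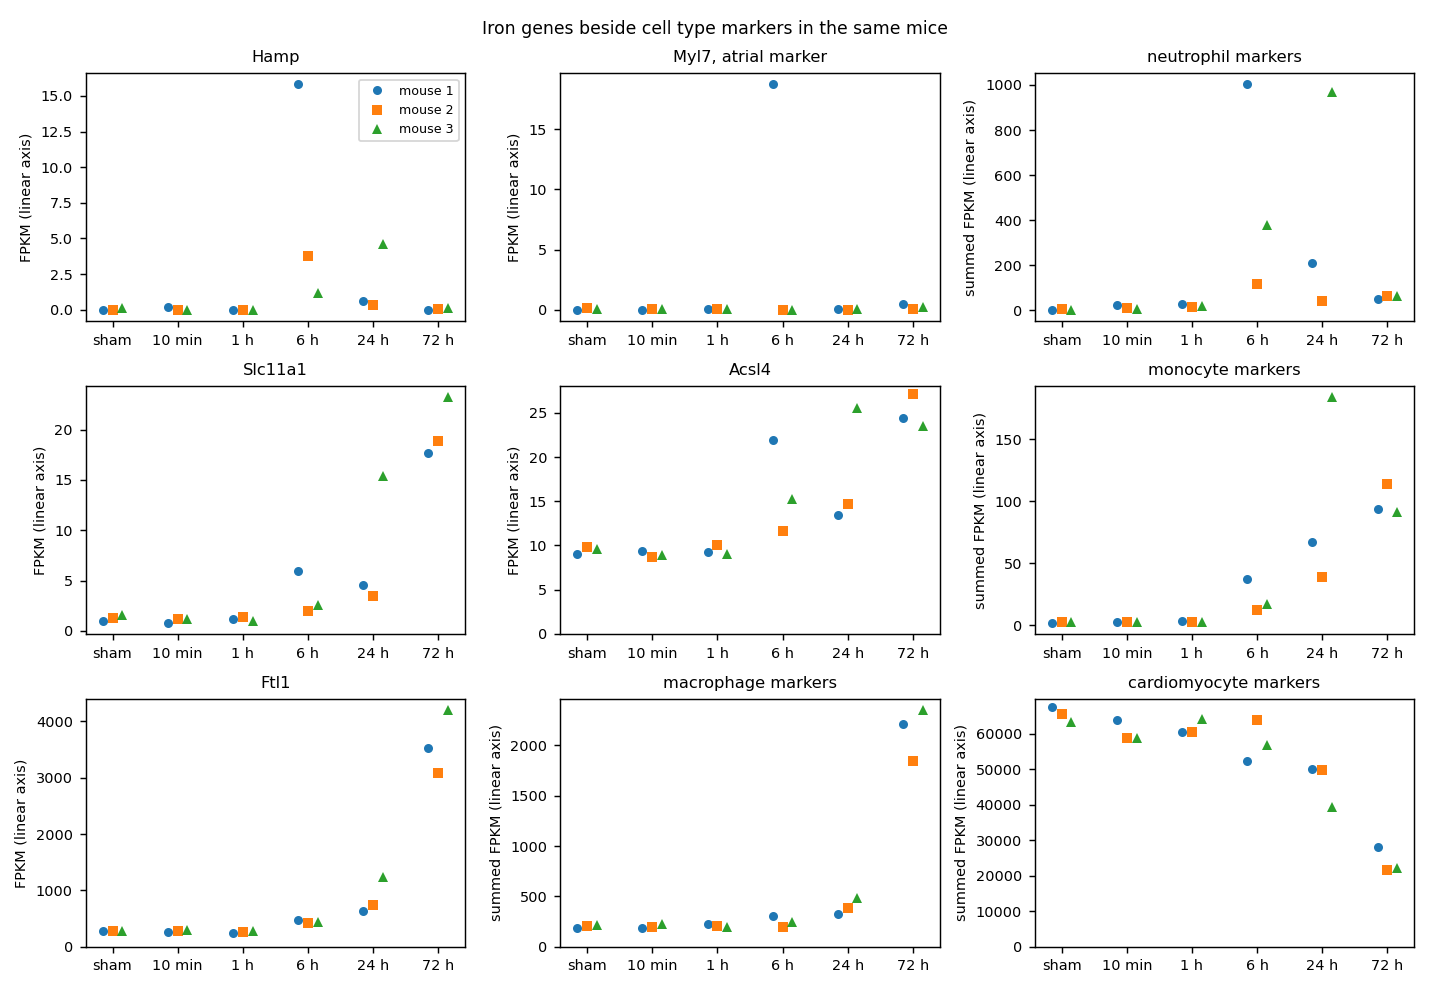
FPKM of Hamp, Slc11a1, Acsl4, Ftl1 and the atrial marker Myl7, and summed FPKM of neutrophil, monocyte, macrophage and cardiomyocyte markers (linear vertical axes), in each of 3 mice a group (horizontal axes, where mouse numbers do not link mice of different groups). Mouse 1 at 6 h was highest of its group in Hamp (15.8 FPKM), Slc11a1 (5.95 FPKM), Acsl4 (21.9 FPKM), Myl7 (18.7 FPKM) and the neutrophil sum (1002 FPKM).

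The ferritin light chain Ftl1, which helps iron to mineralize inside the ferritin shell, was the member with the largest log2 fold change at 72 h. It was close between mice in sham (285, 286 and 277 FPKM), at 10 min (266, 280 and 292 FPKM) and at 1 h (245, 255 and 278 FPKM). It was 467, 426 and 431 FPKM at 6 h, 637, 734 and 1245 FPKM at 24 h and 3521, 3086 and 4202 FPKM at 72 h. From 6 h on no AMI mouse overlapped the sham mice or the mice of the time before. The log2 fold change against sham was 0.64 ± 0.066 at 6 h (SE, limma adjusted p = 0.00126), 1.56 ± 0.23 at 24 h (adjusted p = 0.00587) and 3.66 ± 0.12 at 72 h (adjusted p = 4.06e-08). Between consecutive times it was 0.77 from 1 h to 6 h (limma, adjusted p = 0.00211), 0.92 from 6 h to 24 h (adjusted p = 0.0443) and 2.10 from 24 h to 72 h (adjusted p = 0.000832). The step from 6 h to 24 h was lost when 24 h mouse 2 or any 1 of the 6 h mice was left out, with adjusted p between 0.1 and 0.13. That call was also lost without a filter (adjusted p = 0.0794), after median-of-ratios scaling (log2 fold change 0.67, adjusted p = 0.114), after quantile normalization (adjusted p = 0.0783) and with the mouse number as a block (adjusted p = 0.0973). By mean FPKM, Ftl1 ranked 300 among all symbols in sham and 4 at 72 h.

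The ferritin heavy chain Fth1, which oxidizes ferrous iron for storage, started much higher and moved little. It stood at 1846, 1896 and 1767 FPKM in sham and at 1831 ± 55 and 1810 ± 21.2 FPKM at 10 min and 1 h (SD, n = 3). At 6 h it was 2241, 2029 and 2120 FPKM, above all sham mice, with a log2 fold change of 0.21 that did not pass the test (95% interval 0.05 to 0.38, limma adjusted p = 0.0617). At 24 h it was 1788, 1677 and 2407 FPKM, around the sham mice on both sides. At 72 h it was 2461, 2026 and 2609 FPKM, all above sham, a log2 fold change of 0.36 ± 0.12 (SE, limma adjusted p = 0.0227). That value was 0.04 (adjusted p = 0.813) after median-of-ratios scaling and 1.13 (adjusted p = 1.17e-05) after quantile normalization. The call was also lost with the mouse number as a block (adjusted p = 0.0592), without a filter (adjusted p = 0.0724) and without 72 h mouse 3 or any 1 of the sham mice (adjusted p between 0.0535 and 0.0841).

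The balance of the ferritin chain RNAs, in FPKM, shifted toward Ftl1, and the chains themselves were not measured. The ratio of Fth1 to Ftl1 FPKM was 6.48, 6.63 and 6.38 in sham mice, 7.08, 6.54 and 6.08 at 10 min and 7.35, 7.05 and 6.59 at 1 h. It was 4.8, 4.76 and 4.92 in 6 h mice, 2.81, 2.29 and 1.93 in 24 h mice and 0.699, 0.656 and 0.621 in 72 h mice. A scaling factor of a library cancels in this ratio, and its groups did not overlap from 1 h to 72 h. The difference between 3 mice and 3 mice cannot reach an exact permutation p below 0.1. The summed FPKM of both chains was 2119 ± 69.8 in sham and 2571 ± 128 at 6 h (SD, n = 3). It was 2830 ± 713 in 24 h mice and 5969 ± 850 in 72 h mice. Relative to Cd68, whose FPKM rose in the same mice, the ratio of Ftl1 FPKM was 52.9 ± 13.4 in sham, 50.5 ± 10.8 at 6 h, 31.6 ± 5.99 at 24 h and 18 ± 1.72 at 72 h. This ratio depends on the marker. Of the 8 macrophage markers Cd68 rose most by 72 h (mean FPKM 5.54 to 199). Ftl1 was 12.8 times its sham mean at 72 h. Adgre1 (1.28 to 24.6) and Fcgr1 (2.29 to 67.1) also rose by more, and C1qb (52.4 to 678) by about as much. Csf1r (45.3 to 295), Mrc1 (9.77 to 66.6), Cd14 (4.9 to 39.5) and C1qa (84.5 to 769) rose by less.

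**Figure D3:**
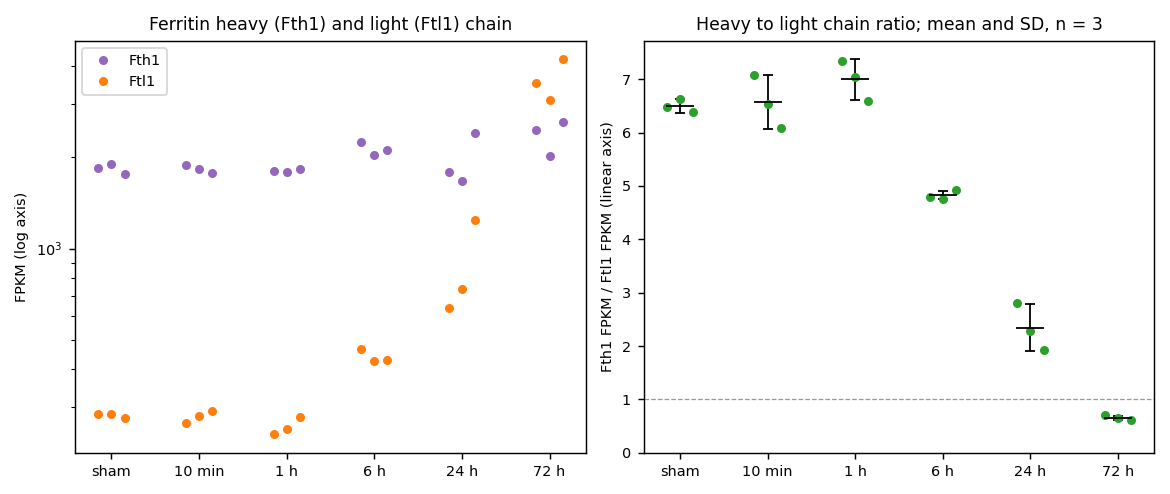
FPKM of the ferritin chains on a log axis (left) and the ratio of Fth1 to Ftl1 FPKM on a linear axis (right) by group (horizontal axes), 1 point a mouse, with mean and SD in the right panel and a dashed line at equal levels. The ratio was 6.5 ± 0.126 in sham and 0.659 ± 0.0391 at 72 h (SD, n = 3).

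Ferroportin, Slc40a1, the known exporter of iron from cells, rose late. It was 5.14, 4.27 and 3.66 FPKM in sham, 3.13, 5.93 and 7.33 FPKM at 10 min, 3.56, 4.50 and 5.36 FPKM at 1 h and 5, 4.45 and 5.39 FPKM at 6 h. At 24 h it was 3.37, 1.77 and 4.11 FPKM, with a log2 fold change against sham of -0.43 (95% interval -0.98 to 0.13, limma adjusted p = 0.183). At 72 h it was 11.9, 9.65 and 17.2 FPKM, above every mouse of the other groups. Its log2 fold change was 1.35 ± 0.19 against sham (SE, limma adjusted p = 0.000184) and 1.78 ± 0.27 against 24 h (adjusted p = 0.00202), both called under all 14 alternatives. All groups but 72 h overlapped with sham. The ratio of Tfrc to Slc40a1 FPKM, the receptor for uptake over the exporter, was 7.55, 9.44 and 14.9 in sham and 5.01, 6.5 and 2.9 at 72 h, without overlap. It ranged from 2.9 to 46.8 over all mice, and was 38.2 in mouse 1 at 10 min and 46.8 in mouse 2 at 24 h.

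The iron regulatory proteins showed smaller changes. Ireb2, iron regulatory protein 2, was 12.8, 13.9 and 13.7 FPKM in sham, 13 ± 1.17 FPKM at 6 h (SD, n = 3), 16.2, 15.4 and 18.9 FPKM at 24 h and 18.5, 20.7 and 21.8 FPKM at 72 h. The mice at 24 h and 72 h lay above all sham mice. The log2 fold change was 0.30 at 24 h (limma, adjusted p = 0.0521) and 0.56 ± 0.078 at 72 h (SE, adjusted p = 0.000185). After median-of-ratios scaling and quantile normalization the 72 h value was 0.26 and 0.23, still called. Aco1, iron regulatory protein 1 and cytosolic aconitase, was 18.3, 16.6 and 18.1 FPKM in sham and 20.9, 22.3 and 22.4 FPKM at 72 h, above all sham mice. Its log2 fold change of 0.29 ± 0.068 (SE, limma adjusted p = 0.00374) equalled the median of all genes, and was -0.01 and -0.02 after the other scalings. The ratio of Ireb2 to Aco1 FPKM was 0.762 ± 0.0681 in sham and 0.929 ± 0.0437 at 72 h (SD, n = 3), without overlap.

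Hamp encodes hepcidin, the hormone that causes ferroportin to be degraded, which is made mainly by the liver. Here it was near 0 in sham mice (0, 0 and 0.114 FPKM), at 10 min (0.177, 0 and 0 FPKM) and at 1 h (0 in all 3). It was 15.8, 3.74 and 1.18 FPKM at 6 h, 0.637, 0.346 and 4.64 FPKM at 24 h and 0, 0.0814 and 0.116 FPKM at 72 h. Every mouse at 6 h and 24 h lay above every mouse of the other groups, and the 72 h mice overlapped the sham mice. On log2(FPKM + 1) the difference from sham was 2.43 ± 0.64 at 6 h, 1.16 ± 0.5 at 24 h and 0.04 ± 0.096 at 72 h (SE). It is given with no test, since the 6 h and 24 h mice were those that brought Hamp past the filter. Without 6 h mouse 1 the difference at 6 h was 1.63, and without 24 h mouse 3 that at 24 h was 0.52.

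The mouse with the most Hamp, mouse 1 at 6 h, also stood apart in genes of atrial muscle. It had 18.7 FPKM of Myl7, 63 FPKM of Myl4 and 12.5 FPKM of Sln, 3 of the 4 atrial markers, where the other 6 h mice had at most 0.0193, 1.91 and 0 FPKM. Nppa, the other atrial marker, was 851, 606 and 254 FPKM in the 6 h mice. Mouse 2 and mouse 3 at 6 h and mouse 3 at 24 h had Hamp at 1.18 to 4.64 FPKM. The summed FPKM of 5 hepatocyte markers was at most 0.42 in any mouse. Hamp2, the paralog of Hamp, stayed below the filter in all mice.

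Gpx4, the selenoenzyme that reduces lipid hydroperoxides in membranes and so suppresses ferroptosis, was the called member that fell. It was 400, 404 and 376 FPKM in sham, 369, 363 and 382 FPKM at 10 min and 327, 355 and 371 FPKM at 1 h. It was 353, 395 and 362 FPKM at 6 h, 397, 387 and 322 FPKM at 24 h and 323, 262 and 291 FPKM at 72 h. The 1 h mice lay below all sham mice, with a log2 fold change of -0.16 that did not pass the test (95% interval -0.30 to -0.03, limma adjusted p = 0.332). At 72 h, again with no overlap, the log2 fold change was -0.43 ± 0.09 (SE, limma adjusted p = 0.00212), and it was -0.75 and -0.53 after median-of-ratios scaling and quantile normalization. Cardiomyocyte markers fell further in the same mice, and the ratio of Gpx4 to Tnnt2 FPKM, over cardiac troponin T, was 0.0172 ± 0.000322 in sham and 0.0274 ± 0.0017 at 72 h (SD, n = 3). Tnnt2 itself had a log2 fold change of -1.10 at 72 h.

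Acsl4, which activates long polyunsaturated fatty acids for membrane lipids and so makes cells sensitive to ferroptosis, moved the other way. It was 9, 9.84 and 9.55 FPKM in sham, 9.02 ± 0.34 FPKM at 10 min and 9.41 ± 0.52 FPKM at 1 h (SD, n = 3). It was 21.9, 11.6 and 15.2 FPKM at 6 h, 13.4, 14.7 and 25.5 FPKM at 24 h and 24.4, 27.1 and 23.5 FPKM at 72 h. From 6 h on every mouse lay above every sham mouse, while the 6 h, 24 h and 72 h mice overlapped with those of the time before or after. The log2 fold change was 0.68 ± 0.2 at 6 h (SE, limma adjusted p = 0.0419), 0.80 ± 0.22 at 24 h (adjusted p = 0.0305) and 1.31 ± 0.075 at 72 h (adjusted p = 8.57e-07). The call at 6 h was lost without a filter (adjusted p = 0.0737), with the mouse number as a block (adjusted p = 0.056), without 6 h mouse 3 (adjusted p = 0.0703) and without any 1 of the sham mice (adjusted p between 0.1 and 0.124), and that at 24 h without a filter (adjusted p = 0.0551) or any 1 of the sham mice (adjusted p between 0.0843 and 0.0991). Its highest mice at 6 h and 24 h were mouse 1 and mouse 3, those with neutrophil sums of 1002 and 968 FPKM. They also had the highest macrophage sums of their groups, 306 and 488 FPKM. The 72 h mice had neutrophil sums of 51.5, 61.3 and 62 FPKM. The ratio of Gpx4 to Acsl4 FPKM, which needs no scaling, was 44.4, 41.0 and 39.4 in sham, 16.2, 34.1 and 23.8 in 6 h mice, 29.7, 26.3 and 12.6 in 24 h mice and 13.2, 9.67 and 12.3 in 72 h mice, below all sham mice from 6 h on.

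**Figure D4:**
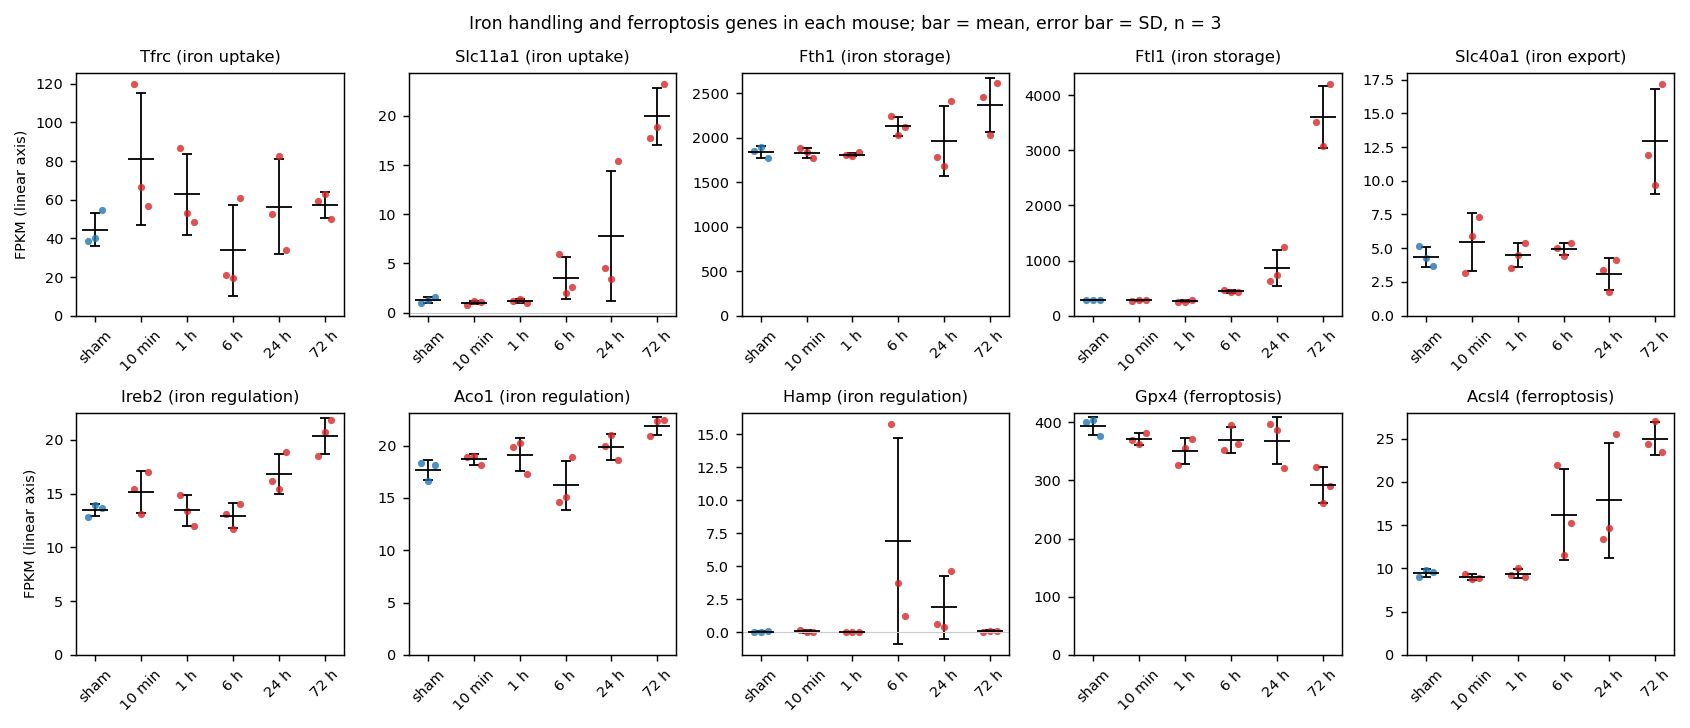
FPKM (linear vertical axes) of the 10 genes in each of 18 mice by group (horizontal axes), blue for sham and red for AMI, with mean and SD over 3 mice. Ftl1, Slc11a1 and Slc40a1 sat highest at 72 h (means 3603, 19.9 and 12.9 FPKM), Hamp at 6 h (mean 6.92 FPKM), and Gpx4 lowest at 72 h (mean 292 FPKM).

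Changes between consecutive times placed the steps. From 10 min to 1 h 0 of 9 members were called, against 0.602% of all genes, and 0 of 9 had an unadjusted p under 0.05 by limma, where 13.1% of all genes had one. From 1 h to 6 h 1 of 9 was called, Ftl1 (log2 fold change 0.77), against 20.5% of all genes. Hamp differed by 2.48 ± 0.63 (SE) between these times, given with no test. From 6 h to 24 h 1 of 9 was called, Ftl1, against 14.4% of all genes. From 24 h to 72 h 3 of 9 were called, Slc11a1, Ftl1 and Slc40a1, against 43.2% of all genes. These comparisons share mice with those against sham.

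Across the 18 mice the members fell into a few patterns, given as Pearson r of log2(FPKM + 1) and shaped by the 6 groups the mice share. Slc11a1 ran with Ftl1 (r = 0.962) and with Acsl4 (r = 0.962), and against Gpx4 (r = -0.759). Tfrc ran with Aco1 (r = 0.688) and against Hamp (r = -0.701). Fth1 and Ftl1 had r = 0.738. Over all other genes tested, with symbols of predicted genes left out, the 3 most like Ftl1 were Apoc2, Cd84 and Tlr1 (r = 0.993, 0.993 and 0.992), and the 3 most like Slc11a1 were Nfam1, Oas3 and Rbm47 (r = 0.992, 0.991 and 0.989). Those most like Acsl4 were Trpm2, Ptpn1 and Plek (r = 0.986, 0.985 and 0.983), and those most like Slc40a1 were Abi3bp, Tcf21 and C1ra (r = 0.911, 0.909 and 0.9). Those most like Hamp were Tiam2, Lipg and Phlda1 (r = 0.949, 0.948 and 0.947), and those most like Gpx4 were Arl2, Mrpl23 and Trim72 (r = 0.945, 0.919 and 0.917). Those most like Fth1 were Mdfi, Serpina3h and Cd33 (r = 0.869, 0.864 and 0.856), and those most like Tfrc were Mrps22, Ahsa1 and Mapk9 (r = 0.845, 0.833 and 0.833). Those most like Ireb2 were Stxbp3, Kif3b and Tmed7 (r = 0.951, 0.946 and 0.946), and those most like Aco1 were Trappc13, Lrrc40 and Hmgcs1 (r = 0.928, 0.916 and 0.91).

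The wider pathway was read from 65 other genes in 9 lists. Of these 55 were tested, Flvcr1 and Flvcr2 were not analysed here, and Tfr2, Ltf, Hpx, Ftmt, Hephl1, Hamp2, Tmprss6 and Fam132b stayed below the filter. For 8 of the 55, Slc39a8, Steap1, Steap2, Hp, Heph, Slc7a11, Alox15 and Ptgs2, no sham mouse reached the filter, so that they were tested only because AMI mice were high. Values of these 8 are a description. Without them, 47 genes had 15 higher and 5 lower at 6 h. The counts were 11 higher and 6 lower in 24 h mice, and 24 higher and 15 lower in 72 h mice. At 10 min 0 of 54 genes with values that varied were called, against 0.346% of all genes. At 1 h 1 of the 47 genes was called, against 0.722% of all genes. It was Sat1 of lipid peroxidation (spermidine acetyltransferase, log2 fold change 0.64 ± 0.088, SE, limma adjusted p = 0.0214). With the 8 included, 2 of 55 were called at 1 h. The other was Ptgs2 (cyclooxygenase, 2.08 ± 0.18, SE), given as a description. The counts that follow are of the 55. At 6 h 20 were higher and 5 lower. The 24 h mice had 15 higher and 6 lower, and the 72 h mice 32 higher and 15 lower. The shares of all genes higher and lower were 11.6% and 16.8% (6 h), 26.2% and 11.4% (24 h), and 53.1% and 24.2% (72 h). After median-of-ratios scaling and quantile normalization the pathway counts were 12 higher and 12 lower, or 12 and 15, at 24 h, and 22 and 19, or 21 and 22, at 72 h.

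Iron uptake and binding genes had 5 of 9 higher and 1 lower at 6 h, where 11.6% of all genes were higher and 16.8% lower. At 72 h 7 of 9 were higher and 1 lower (6 and 1, or 6 and 3, after the other scalings). Of all genes 53.1% were higher and 24.2% lower at 72 h. The median log2 fold change was 0.44 at 6 h and 1.44 at 72 h, against -0.08 and 0.29 over all genes. Slc39a8, Steap1 and Steap2, which no sham mouse brought to the filter, are in these counts and medians, so both are a description. Lcn2, the siderophore binder lipocalin 2, was 4.18 ± 0.64 FPKM in sham, 260 ± 4.44 FPKM at 6 h, 264 ± 173 FPKM at 24 h and 13.1 ± 1.95 FPKM at 72 h (SD, n = 3), with a log2 fold change of 5.66 ± 0.1 at 6 h (SE, limma adjusted p = 2.59e-07). Slc39a14, an importer of iron that is not bound to transferrin, was up at 6 h (1.07 ± 0.12, adjusted p = 0.0015) and had 0.11 at 72 h, not called. Steap2, a ferrireductase, and Trf, transferrin, were higher at 72 h by 2.16 ± 0.099 and 1.99 ± 0.17.

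Heme handling genes had 3 of 8 higher and 1 lower at 6 h, where 11.6% of all genes were higher and 16.8% lower. At 24 h 4 of 8 were higher (3 higher and 1 lower after either other scaling), where 26.2% of all genes were. At 72 h 7 of 8 were higher (5 after either other scaling), where 53.1% of all genes were. Hp, which no sham mouse brought to the filter, is in these counts, so they are a description. Hmox1, heme oxygenase 1, which frees iron from heme, was 4.61 ± 0.685 FPKM in sham, 82.5 ± 15.9 FPKM at 6 h, 116 ± 108 FPKM at 24 h and 372 ± 38.4 FPKM at 72 h (SD, n = 3). Its log2 fold change was 3.88 ± 0.16 at 6 h (SE, limma adjusted p = 5.41e-05) and 6.06 ± 0.11 at 72 h (adjusted p = 8.73e-09). Hp, haptoglobin, which binds free hemoglobin, was higher by 2.29, 2.55 and 3.08 at 6 h, 24 h and 72 h.

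Mitochondrial iron, heme and iron-sulfur cluster genes had 0 of 10 called at 6 h. At 24 h 3 were lower (4 or 5 after the other scalings). At 72 h 7 were lower and 1 higher (9 lower and 0 higher after either). The 72 h median was -0.76 (-1.06 after either other scaling). Of all genes 28.3% were called at 6 h, 11.4% were lower at 24 h, and 24.2% were lower and 53.1% higher at 72 h. Cisd1, an iron-sulfur protein of the outer mitochondrial membrane, fell from 229 ± 9.9 to 94 ± 9.53 FPKM at 72 h (SD, n = 3, log2 fold change -1.28 ± 0.085, SE, limma adjusted p = 1.97e-06). Alas1, which starts heme synthesis, was lower by a log2 fold change of -0.53 at 24 h and -1.13 at 72 h. Cardiomyocyte markers, of the cell type richest in mitochondria, moved down in the same mice, by a median of -0.68 and -1.80, and their part was not tested.

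Regulators of hepcidin and of cellular iron had 0 of 5 higher and 2 lower at 6 h and at 24 h, and 2 higher and 2 lower at 72 h (1 and 3 after either other scaling). For these and the other lists of this paragraph, 11.6% of all genes were higher and 16.8% lower at 6 h. The shares of all genes were 26.2% and 11.4% at 24 h, and 53.1% and 24.2% at 72 h. Hfe2, hemojuvelin, was lower at 6 h, 24 h and 72 h (-0.51, -0.57 and -1.19), Neo1, neogenin, at 6 h (-0.56), and Bmp6, a ligand upstream of hepcidin, at 24 h and 72 h (-0.88 and -1.39). The 3 tested ferritin partners and iron chaperones had 0 called at 6 h, 1 higher at 24 h (0 after either other scaling) and 3 higher at 72 h (1 after median-of-ratios scaling and 2 after quantile normalization). Ncoa4, the receptor that delivers ferritin to autophagy, was higher at 72 h (0.67 ± 0.075, SE, limma adjusted p = 4.99e-05). Pcbp1, a chaperone that loads ferritin, was higher at 24 h and 72 h (0.32 and 0.30). Its 24 h call was lost after median-of-ratios scaling (0.16, limma adjusted p = 0.165) and quantile normalization (0.19, adjusted p = 0.167), and its 72 h change was -0.02 after median-of-ratios scaling (adjusted p = 0.814). Of 2 ferroxidases, Cp was higher at 6 h (0.47), and Heph at 72 h (0.34). The call of Heph was lost after median-of-ratios scaling (0.18) and quantile normalization (-0.19). Heph reached the filter only at 72 h, so its value is a description.

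Cystine uptake and glutathione genes had 5 of 6 higher at 6 h, 3 higher at 24 h, and 5 higher and 1 lower at 72 h (4 and 1, or 3 and 1, after the other scalings). Slc7a11, which no sham mouse brought to the filter, is in these counts, so they are a description. Of all genes 11.6% were higher and 16.8% lower at 6 h. These shares were 26.2% and 11.4% at 24 h, and 53.1% and 24.2% at 72 h. The same shares apply to the other lists of this paragraph. The chains of the cystine transporter, Slc7a11 and Slc3a2, stood above sham at 6 h by 1.85 ± 0.55 and 1.55 ± 0.12 (SE), with a limma adjusted p of 0.000475 for Slc3a2, and at 72 h by 1.43 and 1.42. Slc7a11 was 0.06 ± 0.0335 FPKM in sham, 3.89 ± 4.05 FPKM at 6 h and 6.96 ± 9.63 FPKM at 24 h, so the spread was as large as the mean (SD, n = 3). Gclm, the modifier subunit of glutamate-cysteine ligase, was higher at 24 h (1.02 ± 0.19, adjusted p = 0.0102). Lipid peroxidation genes, with Ptgs2 and Alox15 included as a description, had 4 of 8 higher and 1 lower at 6 h. At 24 h 2 were higher (2 higher and 2 lower after either other scaling). At 72 h 5 were higher and 2 lower (4 and 3 after quantile normalization). Ptgs2 stood at log2 fold changes of 3.71, 2.79 and 2.21 at 6 h, 24 h and 72 h, and Sat1 at 2.09, 1.08 and 2.43. Of 4 other suppressors of ferroptosis 2 were higher at 6 h and 1 at 24 h (0 higher and 1 lower after either other scaling). The 72 h mice had 1 higher and 2 lower (0 and 2 after either). Gch1, which starts tetrahydrobiopterin synthesis, was higher at 6 h (1.09) and Nfe2l2, the transcription factor NRF2, at 6 h and 24 h (0.39 and 0.35). The 24 h call of Nfe2l2 was lost after median-of-ratios scaling (0.21, limma adjusted p = 0.124) and quantile normalization (0.15, adjusted p = 0.216). Dhodh and Aifm2, which reduce ubiquinone in mitochondria and at the plasma membrane, were lower at 72 h (-0.53 and -0.50).

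**Figure D5:**
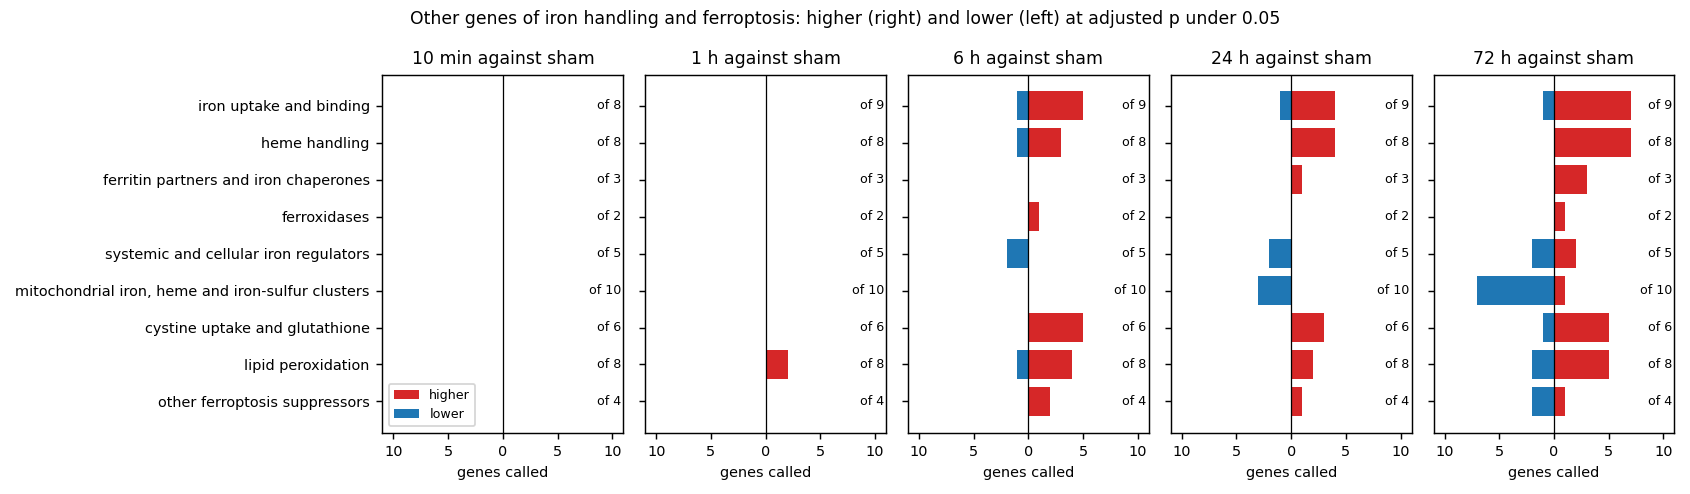
Number of genes called higher (to the right, red) or lower (to the left, blue) at adjusted p under 0.05 (horizontal axis) in 9 lists (vertical axis) at each time against sham, with the number tested at the right edge. At 72 h 7 of 8 heme handling genes were higher and 7 of 10 mitochondrial genes were lower. Of all genes 53.1% were higher and 24.2% lower at 72 h. The bars include the genes that no sham mouse brought to the filter.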

How the data were processed

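Per the file headers, the deposited table gives FPKM per gene symbol and mouse, not averaged. The authors removed adaptors, low-quality bases and reads under 50 bases with cutadapt 1.18, mapped to mm10 with HISAT2 2.1.0 and estimated FPKM with StringTie 1.3.4d, as the methods and the submitters' processing notes state. The annotation is not given in the sources used here. Groups came from the sample titles. Genes with FPKM of at least 1 in at least 1 of 18 mice were kept (13333 of 24419 symbols, 13297 to 13330 of them tested in a comparison because their values varied). In R 4.3.3 with limma 3.58.1 (lmFit, eBayes with a trend), log2(FPKM + 1) was compared on the 6 mice of each comparison, 5 with sham and 4 between consecutive times. A fold change on this scale understates the change of low genes. Both directions were tested, p-values were adjusted by Benjamini and Hochberg over all genes tested, and called means an adjusted p under 0.05. The cufflinks comparison of the study needs reads and was not repeated. The 3 mice of a group were separate animals, and p-values measure the spread between them.

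The members were given, and they and the lists were chosen with earlier results of these data known. Named pathway genes were at most 2 per list and time, those with the largest absolute log2 fold change among called genes whose mice did not overlap with sham. Same-numbered mice were checked for pairing by the correlation of their deviations from group means, and no comparison had all 3 pairs over 0.1. The steps were run on simulated data for 72 h against sham over 13333 genes, of which 13133 were left unchanged. Called were 94 of 100 genes changed by 1 on the log2 scale, 100 of 100 changed by 2 and 10 unchanged genes. These figures hold for the simulated data only. In the mice 77.3% of all genes were called at 72 h, and the rate of false or missed calls there was not tested. The depth is unknown, since the file has no counts. The summed FPKM was 542418 to 600467, and relative depth, roughly read from the lowest values, was 0.818 to 1.31. Alternatives were another pseudocount (0.1), filters (none, or on mean FPKM), scalings (median-of-ratios or quantile), fits (1 over all 18 mice, with the replicate block, or without the variance trend) and leaving out each mouse. Python 3.11.15, numpy 2.4.6, pandas 2.3.3, scipy 1.17.1 and matplotlib 3.10.9 were used.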

Additional observations from a re-analysis of the deposited data

Results flagged for a closer look

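The following results were flagged because the effect against sham differed between consecutive times by the test of that difference (limma, adjusted p under 0.05 over all genes tested). Ftl1 was higher by a log2 fold change of 0.77 at 6 h than at 1 h, by 0.92 at 24 h than at 6 h and by 2.10 at 72 h than at 24 h. Hamp stood 2.48 higher at 6 h than at 1 h, but it entered the tests only because its 6 h and 24 h mice were high, and the call was lost without a filter (adjusted p = 0.0686) and without 6 h mouse 2 or any 1 of the 1 h mice (adjusted p between 0.0587 and 0.099), so it is a description. The step of Ftl1 from 6 h to 24 h was lost without a filter, after either other scaling, with the replicate block and without 24 h mouse 2 or any 1 of the 6 h mice. Slc11a1 was higher by 1.49 and Slc40a1 by 1.78 at 72 h than at 24 h. Groups of 3 mice are too small for a test of outlying mice, and none was run.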

How the results depend on the processing

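The counts in this paragraph include Hamp, which entered the tests only through its high 6 h and 24 h mice, so they are a description. The share of all genes called was 28.3% at 6 h, 37.6% at 24 h and 77.3% at 72 h. Without a filter it was 18%, 23.8% and 60.4%, and with all 18 mice in one fit 32.9%, 49.7% and 72.7%. Against sham, 3 members were called at 6 h, with 1 without a filter, 2 with the replicate block, and 4 with a pseudocount of 0.1 or median-of-ratios scaling. At 24 h 3 became 1 without a filter, 4 with a filter on mean FPKM or all 18 mice in one fit, and 5 with a pseudocount of 0.1. At 72 h 9 became 6 after median-of-ratios scaling (Tfrc, Fth1 and Aco1 lost), 7 without a filter, after quantile normalization or with the block, and 8 with all 18 mice in one fit. From 1 h to 6 h 2 became 1 without a filter, 3 after quantile normalization or with all 18 mice, 4 with a pseudocount of 0.1 or median-of-ratios scaling, and 5 with a filter on mean FPKM. From 6 h to 24 h 1 became 0 without a filter, after median-of-ratios scaling, after quantile normalization or with the block, and 3 with all 18 mice. From 24 h to 72 h 3 became 2 without a filter, 4 with a pseudocount of 0.1 or after either scaling, and 5 with all 18 mice. Without the variance trend each of these counts was as reported, and under the alternatives so far 0 members were called at 10 min, at 1 h and from 10 min to 1 h. The 72 h change of Aco1 turned to -0.01 after median-of-ratios scaling and -0.02 after quantile normalization. The cause of these shifts was not tested. With 1 mouse left out, all genes called ranged from 1640 to 4423 at 6 h and from 1628 to 5839 at 24 h. The range was 9700 to 10186 at 72 h. From 1 h to 6 h it was 820 to 3165, and from 6 h to 24 h 2 to 2099. From 24 h to 72 h it was 3839 to 7122. Leaving out 1 mouse, the members called ranged from 1 to 4 at 6 h, 1 to 4 at 24 h, 7 to 8 at 72 h, 1 to 4 from 1 h to 6 h, 0 to 1 from 6 h to 24 h and 2 to 7 from 24 h to 72 h, where 7 came without 24 h mouse 3 (the 1 at 6 h and at 24 h came without any 1 sham mouse), and stayed at 0 at 10 min, at 1 h and from 10 min to 1 h.

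The mice share only a number. Same-numbered mice had correlations of deviations from -0.327 to 0.415 between 24 h and 6 h. With the replicate block 0 members were called from 6 h to 24 h, where Ftl1 had an adjusted p of 0.0973 and 1 of all genes was called in place of 1922. Acsl4 at 6 h (adjusted p = 0.056), Tfrc at 72 h (0.0542) and Fth1 at 72 h (0.0592) were also past the threshold only without the block.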
